A study of Mus musculus with 9 samples.

Results

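Integrins and laminins are the receptors and the ligands of the contact between a cell and its basement membrane. An integrin is a pair of one α and one β subunit that spans the cell membrane, the α subunit largely setting which matrix protein is bound and the β subunit linking the pair to actin through the adhesion plaque. A laminin is a secreted trimer of an α, a β and a γ chain that polymerises into the sheet of the basement membrane. In the mouse embryo the epiblast lies on such a sheet and receives its signal through β1 integrins while it polarises around implantation, the interval that naïve and primed pluripotent cells are taken to bracket.

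The 35 genes described here are 17 integrin α subunits, 8 integrin β subunits and 10 laminin chains, found in the table of 54232 mouse genes by matching a fixed list of symbols to Ensembl identifiers. No expression value entered the matching, but the list was chosen with earlier results of these data known. RNA-seq compared naïve mouse embryonic stem cells (mESCs), cultured in S/L medium (serum and leukemia inhibitory factor), with primed epiblast stem cells (mEpiSCs) made from them in F/A medium (Fgf2 and Activin A), each at passage 5 (P5) and passage 15 (P15) with 2 libraries a group. All cells were of the C57 x CBA strain and came from one ES line that carries a GFP reporter under the distal Oct4 promoter and enhancer. Every naïve and primed culture grew on mouse embryonic fibroblasts (MEFs) stopped with mitomycin C, and 1 library of MEFs gives the level of each gene in the feeder cell type. Nothing in the labels says that the 2 libraries of a group came from separate cultures, so the tests below measure the spread between these libraries.

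The naïve and primed libraries held 14378051 to 20985136 counts and the MEF library 25646547. Levels are CPM, the counts of a gene over those of its library, scaled by TMM over all 9 libraries. The labels held against their markers. Naïve markers summed to 1542 to 1735 CPM in naïve and 54.5 to 184.8 in primed libraries, primed markers to 49.6 to 74.4 and 705 to 777, and the shared pluripotency markers to 1083 to 2243, against 2.89 in MEFs. MEFs held 87.7 CPM of the naïve markers, above both primed P15 libraries, and 21.7 of the primed markers. Whether feeders were removed before RNA extraction is not given in the sources used here. The 30 fibroblast markers, of which 29 or 30 were at 1 CPM or above in each library, summed to 9762 and 9822 CPM in naïve P5, 5992 and 5844 in primed P5, 16390 and 17228 in naïve P15, 14797 and 14213 in primed P15 and 82964 in MEFs, lowest at primed P5. Primitive endoderm markers summed to 67.9 to 115.8 CPM in naïve and 325 to 343 in primed libraries, and to 424 in MEFs, above all of these. *Sox17* and *Foxa2* were among those higher in primed cells, *Cubn* and *Amn* were lower in them, and *Afp* and *Ttr* were at or near 0. Trophoblast markers summed to 73.6 to 80.5 CPM in naïve and 29.7 to 64.2 in primed libraries, and endothelial markers to 50.01 to 72.4 and 6.02 to 16.4. These are bulk libraries, in which fewer cells of a type and less RNA per cell cannot be told apart.

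Members were compared by edgeR's quasi-likelihood test, fitted over all genes with at least 10 counts in at least 2 libraries of the fit. A member is said to have risen, fallen or changed at a Benjamini-Hochberg adjusted p below 0.01, and to be called where the change was also at least 2-fold. Log2 fold changes are given ± SE with 2 libraries a group, and each was recomputed under alternatives that changed the scaling, the filter, the test, the fitted libraries or the feeder share, or left out 1 library. At P5, 6 members were called higher and 5 lower in primed than in naïve cells, out of 31 tested, where 13.5% and 8.85% of the 16482 genes tested were called higher and lower. At P15 the counts were 4 higher and 8 lower of 31, against 12.2% and 11.0% of all 15733 genes. Between P5 and P15, 1 member was called higher and 0 lower in naïve cells (all genes 0.414% and 0.721%), and 1 higher and 8 lower of 30 in primed cells (all genes 3.18% and 8.43%). Beside the 0 in naïve cells, 1 member was lower by 2-fold at an unadjusted edgeR p below 0.05, and DESeq2 also called 0. At the smaller bar of a change of any size, 15 members rose, 7 fell and 9 did not pass at P5, whereas 11 rose, 15 fell and 5 did not pass at P15. The median log2 fold change of the tested members, primed against naïve, was 0.20 at P5 and −0.38 at P15, beside medians over all genes within 0.01 of zero. The 4 members with no test in any comparison were *Itgam*, *Itgax*, *Itgb6* and *Lamc3*, which held at most 13 counts in any naïve or primed library.

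**Figure D1:**
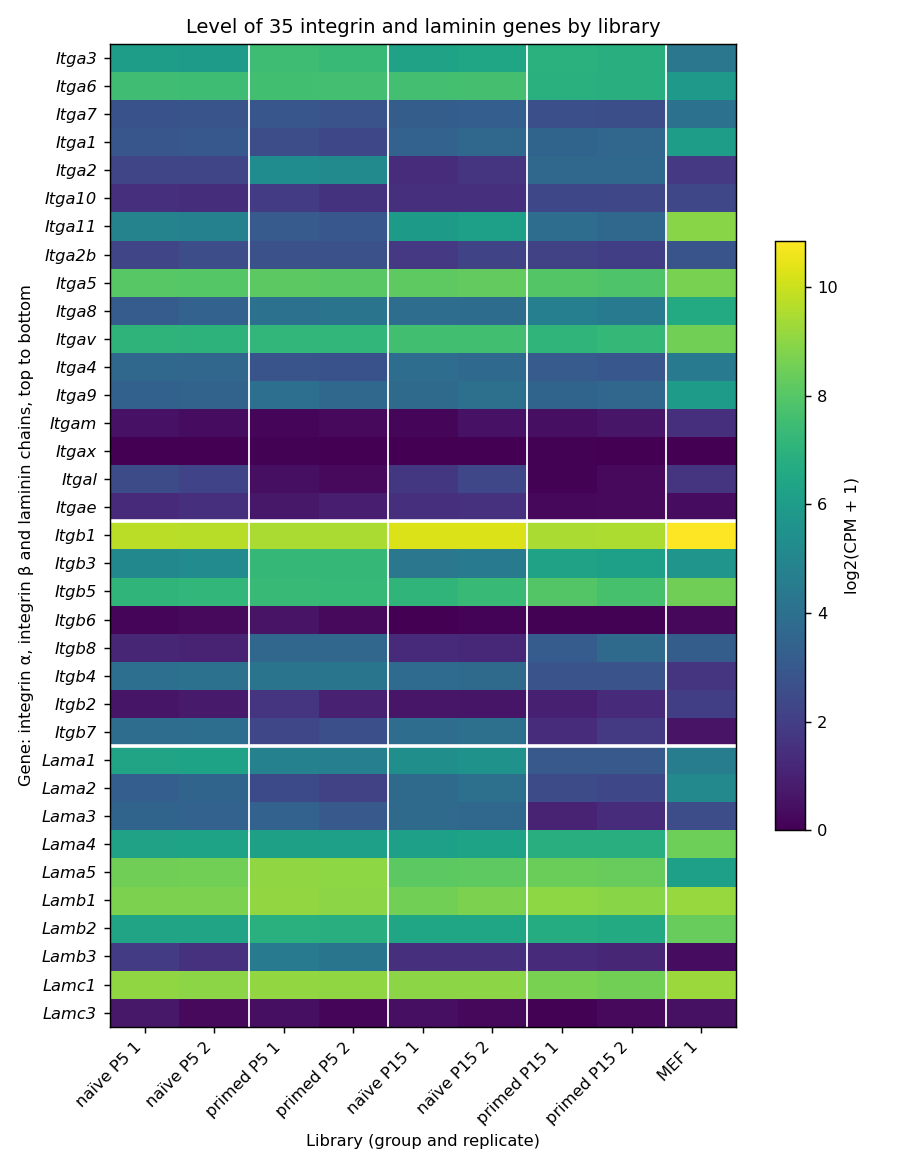
Heat map of log2(CPM + 1) for the 35 genes (rows, grouped by subunit class) in the 9 libraries (columns, by state and passage, with MEFs last). The 2 libraries of a group look alike in nearly every row, *Itgb1*, *Lamb1* and *Lamc1* are high throughout, and *Itgam*, *Itgax*, *Itgb6* and *Lamc3* are near zero in the naïve and primed libraries.

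The members called higher at P5 with at least 10 CPM in a group were *Itga2*, *Itga3*, *Itgb3*, *Itgb8* and *Lamb3*, a selection made after the values were seen. Their 5′ flanks are shown because these genes rose by at least 2-fold at P5. RefSeq's promoter table for GRCm38.p6 held an entry for 23 of the 35 members. Of these 5 it gave a stretch outside annotated exons for *Itga2*, *Itga3* and *Lamb3*, of which 1 window each is printed here, 5′ to 3′ on the gene's strand, up to 250 bases before the RefSeq transcript start and with exon bases left out. The window of *Lamb3* lies inside the annotated span of the gene (chr1:193207699-193343878), before a RefSeq transcript start within it. Capitals mark matches to 4 motifs searched on both strands, TGANTCA (the AP-1 site), TTCNNNGAA (the STAT site), GGGCGG (the GC box) and CACCTG (an E-box), and no match overlapped another.
*Itga2*, chr13:114932101-114932350, minus strand: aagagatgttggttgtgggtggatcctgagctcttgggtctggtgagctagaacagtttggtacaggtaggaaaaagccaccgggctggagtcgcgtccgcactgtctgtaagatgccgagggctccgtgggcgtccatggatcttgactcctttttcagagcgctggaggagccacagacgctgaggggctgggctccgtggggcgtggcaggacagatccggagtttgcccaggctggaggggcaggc
*Itga3*, chr11:95076802-95076964, minus strand: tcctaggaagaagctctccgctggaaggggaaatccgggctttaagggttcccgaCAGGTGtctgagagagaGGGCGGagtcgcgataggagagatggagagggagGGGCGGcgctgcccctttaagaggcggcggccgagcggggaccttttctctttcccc
*Lamb3*, chr1:193301744-193301992, plus strand: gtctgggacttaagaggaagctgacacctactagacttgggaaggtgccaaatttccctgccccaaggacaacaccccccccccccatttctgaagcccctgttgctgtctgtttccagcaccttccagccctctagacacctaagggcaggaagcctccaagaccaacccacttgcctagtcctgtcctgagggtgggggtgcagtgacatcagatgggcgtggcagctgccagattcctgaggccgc
The *Itga3* window held GGGCGG, the GC box bound by Sp-family factors, at positions −178 and −144 from the transcript start, and CAGGTG, the reverse complement of CACCTG, an E-box read by Snail and Zeb repressors, at position −195. The windows of *Itga2* and *Lamb3* held no match to any of the 4 motifs. Over the 32817 mouse promoters in the table, 32.7% held GGGCGG, 17.2% CACCTG, 6.75% TGANTCA and 7.01% TTCNNNGAA in the 250 bases before the transcript start, here with exon bases kept. The printed *Itga3* window holds 163 bases, so these are not shares for a stretch of its length. A match describes the letters only.

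The integrin β1 chain, the partner of most α subunits, led all integrins by level. Per kilobase of exon, the only scale on which different genes are compared here, *Itgb1* (chr8:128685654-128733200, GRCm38) stood at 207 ± 5.29 CPM per kb in naïve P5, 175 ± 0.943 in primed P5, 305 ± 2.97 in naïve P15 and 177 ± 4.11 in primed P15 (mean ± SD, n = 2), beside 456 in MEFs. *Itgb5*, which pairs with αV to bind vitronectin, was second among β chains in every group at 39.6 ± 1.13, 44.8 ± 1.83, 42.04 ± 4.31 and 64.1 ± 7.05 CPM per kb in the same order. Among α subunits the fibronectin receptor *Itga5* was first in all 4 groups, at 51.9 ± 1.36, 55.1 ± 0.894, 59.96 ± 2.61 and 48.9 ± 2.66 CPM per kb. Per kb of all exons the laminin receptor subunit *Itga6* was second in both naïve groups (19.9 ± 0.338 and 21.99 ± 0.227), whereas *Itga3* was second in both primed groups (29.9 ± 2.302 and 20.5 ± 1.36), each pair of neighbours with no overlap between libraries. Divided by the longest transcript in place of all exons, *Itga6* was second in all 4 groups. In primed P15, *Itgav* and *Itga6*, next in the order, overlapped. In MEFs the first α subunit was *Itga11*, at 95.4 CPM per kb.

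**Figure D2:**
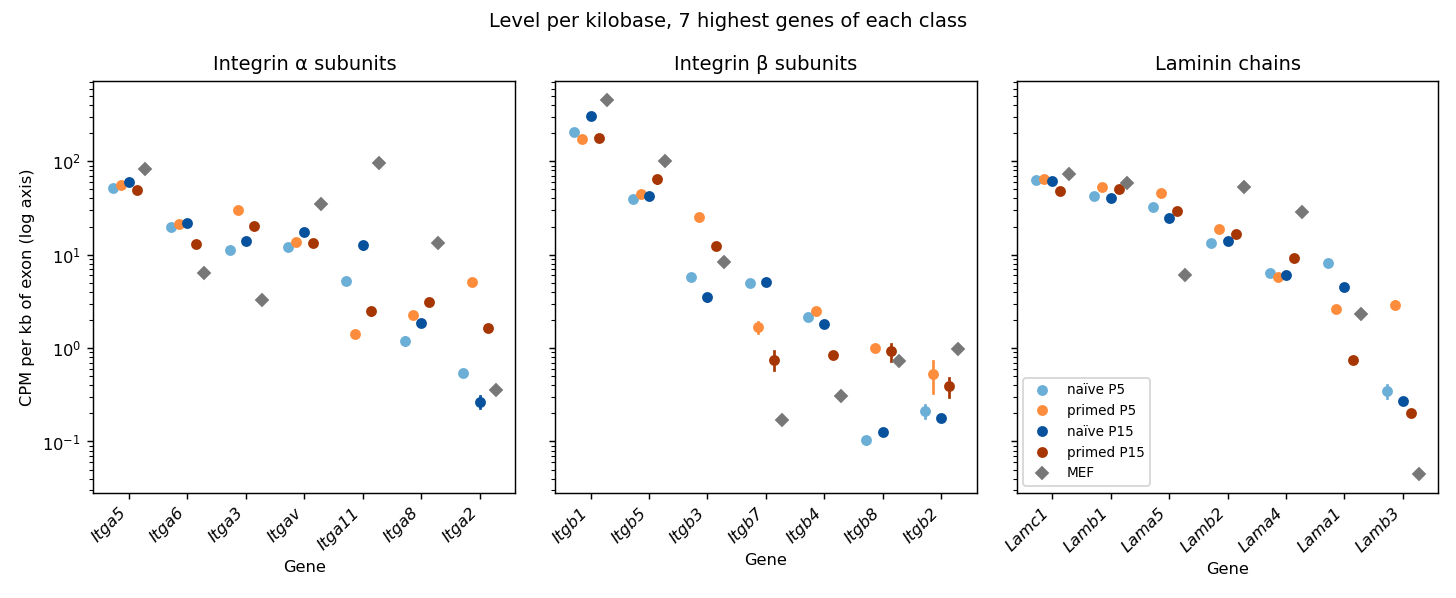
Level per kilobase of exon (CPM per kb, log axis) of the 7 highest integrin α, integrin β and laminin genes in naïve P5, primed P5, naïve P15 and primed P15, with points at group means of 2 libraries, vertical lines from the lowest to the highest library and diamonds for the single MEF library. *Itgb1* lies above all other β chains in every group, and *Itga5* above all other α chains in the 4 stem cell groups.

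By CPM, *Itgb1* read 862 and 831 in naïve P5, 718 and 712 in primed P5, 1235 and 1252 in naïve P15 and 712 and 736 in primed P15. Both primed groups lay below both naïve groups. The log2 fold change, primed against naïve, was −0.21 ± 0.032 (SE) at P5 and −0.79 ± 0.053 at P15, the larger gap at P15 coming with a naïve level that had risen by 0.56 ± 0.038 from P5 and a primed level that did not pass the test between passages. Scaled by library size alone, which moves the median of all genes at P5 to 0.21, the P5 value of *Itgb1* was −0.0084 and no longer passed. Its P15 value ran from −1.48 to −0.69 under the alternatives. MEF counts scaled to the median fibroblast marker would give 37.1%, 35.2%, 28.0% and 57.6% of its level in naïve P5, primed P5, naïve P15 and primed P15. The part of feeder RNA in its changes between passages was not tested.

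Among the laminin-binding α subunits, *Itga3* rose in primed cells at both passages. Its product pairs with β1 and binds the laminins that hold the α3 or α5 chain. *Itga3* (chr11:95044474-95076801) read 66.5 and 61.6 CPM in naïve P5 against 179.9 and 161 in primed P5, then 76.1 and 82.9 against 123 and 112 at P15, with 18.7 in MEFs. The groups did not overlap at either passage, and the P15 gap was the narrower. In the fit this was a log2 fold change of 1.45 ± 0.052 at P5 (edgeR adjusted p = 1.74e-20) and 0.55 ± 0.069 at P15, and the difference between the passages, −0.88 ± 0.09, passed the test of the difference itself (edgeR adjusted p = 2.54e-09).

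*Itga6*, the other main laminin receptor subunit of stem cells, moved little at P5 and fell at P15. It read 182 and 178 CPM in naïve P5, 189 and 193 in primed P5, 197 and 199.9 in naïve P15 and 119.5 and 116 in primed P15, a log2 fold change of −0.76 ± 0.061. The P5 change of 0.12 ± 0.038 passed the test but was lost under 9 of 12 alternatives. *Itga7*, a laminin receptor best known from muscle, lay between 5.17 and 8.51 CPM in the 8 libraries, and its fall at P15 (−0.67 ± 0.18) was lost under 3 of 13 alternatives.

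*Itgb4*, which pairs with α6 and anchors epithelia to laminin through hemidesmosomes, separated the passages. *Itgb4* (chr11:115974709-116008412) read 14.8 and 15.6 CPM in naïve P5, 17.3 and 17.6 in primed P5, 13.04 and 12.3 in naïve P15 and 5.91 and 5.96 in primed P15, and MEFs held 2.17. Among the naïve and primed libraries those of primed P15 were lowest. At P5 the primed libraries were above the naïve ones by 0.23 ± 0.10 on the log2 scale, which did not pass (edgeR adjusted p = 0.0414), and at P15 the log2 fold change was −1.10 ± 0.16 (edgeR adjusted p = 2.33e-07). The 2 state differences themselves differed by −1.32 ± 0.18 (edgeR adjusted p = 4.87e-07), the first of 5 members called lower and 0 called higher in that test, where 4.80% and 2.36% of 16926 genes were called lower and higher. Beside that 0, no member was higher by 2-fold at an unadjusted edgeR p below 0.05 and DESeq2 called 0.

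The collagen-binding α subunits did not move together. *Itga2*, a receptor for fibrillar collagen and laminin, showed the largest rise of any α subunit. *Itga2* (chr13:114833081-114932100) read 3.88 and 3.86 CPM in naïve P5 and 38.2 and 35.2 in primed P5, then 1.62 and 2.17 in naïve P15 and 11.7 and 11.8 in primed P15, and MEFs stood at 2.51. Every primed library exceeded every naïve library and the MEF library. This amounted to 3.28 ± 0.11 on the log2 scale at P5 (edgeR adjusted p = 9.53e-21) and 2.60 ± 0.21 at P15 (edgeR adjusted p = 3.07e-13). In primed cells it fell by 1.67 on the log2 scale from P5 to P15, while the naïve libraries gave no change that passed. Its 5′ flank is the first of those printed above.

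*Itga10*, a collagen receptor of cartilage, was low and read 1.79 and 1.68 CPM in naïve P5, 2.83 and 2.05 in primed P5, 1.77 and 1.73 in naïve P15 and 4.07 and 3.98 in primed P15, with 3.998 in MEFs. It passed at P15 and not at P5 (1.19 ± 0.29, edgeR adjusted p = 0.000455), and DESeq2's Wald test did not call it (adjusted p = 0.0231). *Itga1*, which binds the type IV collagen of basement membranes, read 6.41 and 6.88 CPM in naïve P5, 4.97 and 4.104 in primed P5, 9.72 and 11.4 in naïve P15 and 10.4 and 10.9 in primed P15 beside 64.7 in MEFs. It passed in neither state comparison and rose between P5 and P15 by 1.19 ± 0.16 in primed cells and by 0.67 ± 0.15 in naïve cells, the latter lost under 6 of 11 alternatives. MEF counts scaled to the median fibroblast marker would give 164%, 192%, 115% and 136% of the *Itga1* level in naïve P5, primed P5, naïve P15 and primed P15. No fold between passages is given at that share. By the lowest marker the parts would be 41.1%, 9.72%, 39.6% and 14.6%. The gene overlaps *Pelo* on the same strand, so reads in the shared part cannot be assigned to one of them, and *Pelo* stood at 4.92 to 11.9 CPM.

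*Itga11*, the type I collagen receptor of fibroblasts, was lower in primed cells and highest in MEFs. *Itga11* (chr9:62677826-62783982) read 27.6 and 26.7 CPM in naïve P5, 7.703 and 6.77 in primed P5, 59.4 and 69.7 in naïve P15 and 13.9 and 11.5 in primed P15, and 489 in MEFs. Between states it changed by −1.87 ± 0.11 on the log2 scale at P5 and −2.36 ± 0.10 at P15, and in naïve cells it was the member called higher between passages (1.25 ± 0.081). RNA of the MEF library, taken at the share given by the lowest fibroblast marker, would account for 76.1%, 46.1%, 48.9% and 92.6% of its level in naïve P5, primed P5, naïve P15 and primed P15. With that share taken off, the P5 value was −0.75 (edgeR adjusted p = 0.00217), the P15 value −5.16 and the naïve passage value 2.39. The primed passage change turned from 0.77 ± 0.14 to −2.00. By the median marker the MEF share would exceed its whole level in all 4 groups.

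The subunits that read the Arg-Gly-Asp motif of fibronectin and vitronectin held the largest rises among β chains. *Itgb3*, the αV and αIIb partner known from platelets and osteoclasts, read 32.6 and 36.4 CPM in naïve P5, 151 and 148 in primed P5, 18.9 and 22.3 in naïve P15, 75.9 and 68.8 in primed P15 and 49.5 in MEFs. *Itgb3* (chr11:104608000-104670476) was therefore higher in every primed library than in every naïve one, by 2.15 ± 0.053 on the log2 scale at P5 (edgeR adjusted p = 2.03e-24) and 1.80 ± 0.091 at P15 (edgeR adjusted p = 2.45e-19). It fell with passage in both states, by 0.74 in naïve and by 1.08 in primed cells.

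*Itgb8*, which with αV releases TGF-β from its latent complex, read 1.24 and 1.04 CPM in naïve P5, 11.1 and 11.04 in primed P5, 1.47 and 1.34 in naïve P15 and 8.03 and 12.4 in primed P15, and MEFs held 8.12. Naïve cells thus had about 1 CPM at both passages and primed cells 8.03 or more. *Itgb8* (chr12:119158022-119238802) rose by 3.30 ± 0.20 at P5 and 2.84 ± 0.26 at P15 (edgeR adjusted p = 8.93e-15 and 4.07e-12), with no change between passages in either state that passed. *Itgb5* rose in primed cells by 0.21 ± 0.042 at P5 and 0.60 ± 0.07 at P15, and its CPM ran from 138 and 144 in naïve P5 to 246 and 210.1 in primed P15. *Itgb6*, the epithelial αV partner, had 0 to 10 counts in any naïve or primed library.

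The α subunits of these pairs changed less. *Itgav* read 132 and 127 CPM in naïve P5, 144 and 147 in primed P5, 187 and 187 in naïve P15 and 136 and 152 in primed P15, and was higher in primed cells at P5 (0.20 ± 0.042) and lower at P15 (−0.39 ± 0.063), a difference that passed (−0.57 ± 0.075, edgeR adjusted p = 3.25e-07). *Itga5* gave the same signs at smaller sizes, 0.12 ± 0.036 at P5, lost under 6 of 12 alternatives, and −0.31 ± 0.059 at P15. *Itga8*, the nephronectin receptor, rose by 0.96 ± 0.12 at P5 and 0.75 ± 0.12 at P15 and its naïve CPM were 7.86 and 9.599 at P5 and 13.6 and 13.4 at P15, beside 97.4 in MEFs. With MEF counts scaled to the median fibroblast marker, feeders alone would give 188% and 135% of the naïve *Itga8* level at P5 and P15 and 79.02% and 94.8% of the primed level, and no fold is given at that share. *Itga2b*, the platelet fibrinogen receptor subunit, stayed between 2.504 and 5.57 CPM and passed in neither state comparison.

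Of the 2 α subunits that bind VCAM1, fibronectin or tenascin-C, *Itga4* fell in primed cells at both passages, reading 11.8 and 10.9 CPM in naïve P5, 6.06 and 5.602 in primed P5, 13.9 and 11.96 in naïve P15 and 7.75 and 6.65 in primed P15 (−0.93 ± 0.14 and −0.85 ± 0.16 on the log2 scale). *Itga9* lay between 9.25 and 15.2 CPM, and its rise at P5 (0.52 ± 0.13) was lost under 3 of 12 alternatives. MEFs held 22.2 CPM of *Itga4* and 60.9 of *Itga9*.

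Of the integrins named for leukocytes, *Itgb7* and *Itgal* fell in primed cells at both passages, *Itgae* fell at P15 and *Itgb2* was called higher at P5. *Itgb7*, which pairs with α4 or αE in lymphocyte homing, read 13.7 and 14.1 CPM in naïve P5, 3.98 and 5.32 in primed P5, 13.6 and 14.97 in naïve P15, 1.61 and 2.56 in primed P15 and 0.468 in MEFs. Naïve levels did not pass the test between passages, and every primed library lay below every naïve one, lowest at P15. The log2 fold change was −1.55 ± 0.15 at P5 (edgeR adjusted p = 1.74e-10) and −2.79 ± 0.20 at P15 (edgeR adjusted p = 1.28e-14). The difference between the 2, −1.22 ± 0.27, was called (edgeR adjusted p = 0.000563) but not without primed P5 replicate 2 (−1.03, adjusted p = 0.0117) or primed P15 replicate 1 (−0.92, adjusted p = 0.0178).

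*Itgal*, the α subunit of the leukocyte integrin LFA-1, read 4.53 and 3.61 CPM in naïve P5 and 2.36 and 3.901 in naïve P15, against 0.348 and 0.222 in primed P5 and 0.0574 and 0.227 in primed P15, which rest on 7 and 4 and 1 and 4 counts. *Itgal* (chr7:127296260-127335138) was therefore close to the 3-count floor of a library, 0.148 to 0.221 CPM, in primed cells and clearly above it in naïve cells, with 2.21 CPM in MEFs. Primed against naïve, its log2 fold change was −3.76 ± 0.38 at P5 and −4.40 ± 0.54 at P15 (edgeR adjusted p = 5.17e-10 and 7.19e-09). *Itgae*, whose product binds E-cadherin together with β7, read 1.54 and 1.78 CPM in naïve P5, 0.646 and 0.887 in primed P5, 1.77 and 1.92 in naïve P15, 0.172 and 0.227 in primed P15 and 0.298 in MEFs, the primed P15 values resting on 3 and 4 counts. It passed at P15 (−3.17 ± 0.54, edgeR adjusted p = 4.03e-06) and not at P5. Its fall in primed cells between passages (−1.93 ± 0.59) was lost under 5 of 10 alternatives, among them leaving out either primed P15 library (edgeR adjusted p = 0.0343 without replicate 1 and 0.0129 without replicate 2). The gene overlaps *Haspin* on the opposite strand, which read 21.03 and 21.5 CPM in naïve P5, 12.1 and 12.9 in primed P5, 25.9 and 21.7 in naïve P15 and 15.4 and 15.8 in primed P15, and the part of such reads in *Itgae* was not tested.

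*Itgb2*, the β chain that LFA-1 needs, read 0.547 and 0.742 CPM in naïve P5, 2.24 and 0.998 in primed P5, 0.589 and 0.512 in naïve P15, 0.918 and 1.48 in primed P15 and 3.02 in MEFs. It was called higher at P5 (1.37 ± 0.43, edgeR adjusted p = 0.00629), a call lost under 4 of 12 alternatives. The call rested on primed P5 replicate 1, without which the value was 0.68, and it was also lost without naïve P5 replicate 1. *Itgam* had 2 to 10 counts and *Itgax* 0 or 1 in the naïve and primed libraries. Leukocyte markers summed to 59.7 and 62.4 CPM in naïve P5, 45.4 and 44.9 in primed P5, 57.6 and 57.2 in naïve P15 and 24.5 and 23.4 in primed P15, with 3 or 4 of 10 at 1 CPM or above in each of these libraries. The MEF library held the highest sum, 118 CPM, with 10 of 10 at 1 CPM or above. The lower sums in primed cells came with *Laptm5*, at 44.01 and 46.9 CPM in naïve P5, 7.95 and 6.05 in primed P5, 43.5 and 43.9 in naïve P15 and 2.81 and 2.44 in primed P15, while *Cd68* went from 11.8 and 11.6 to 25.9 and 25.9 at P5, and *Cd14* and *Lyz2* were also higher in primed P5. The pan-leukocyte marker *Ptprc* was at or under 0.52 CPM in all 8, and the part of these markers in the values of *Itgb7*, *Itgal* and *Itgae* was not tested.

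**Figure D3:**
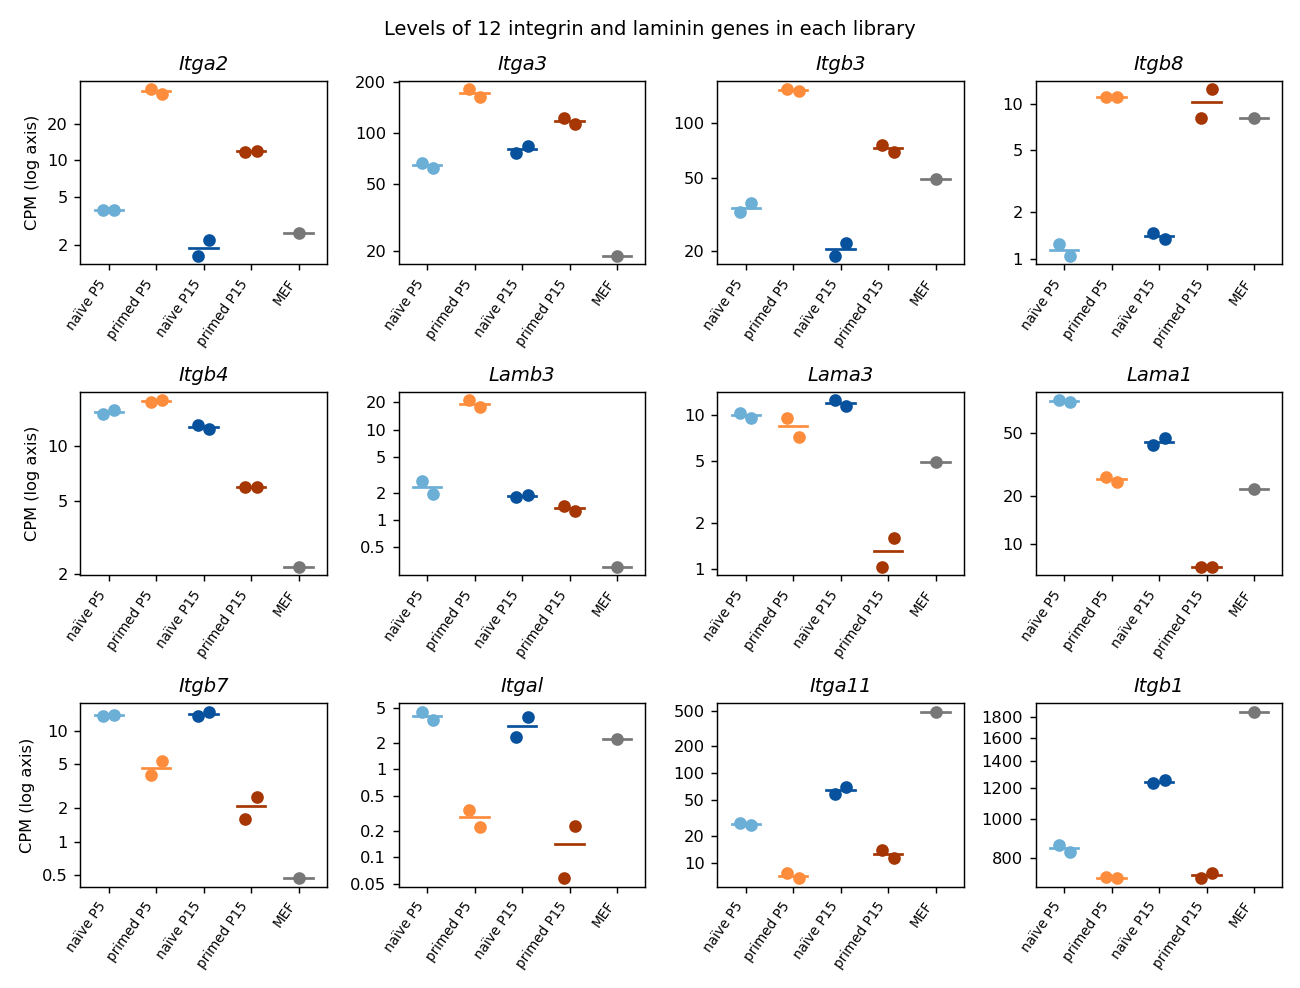
CPM (log axis, each panel with its own range) of 12 integrin and laminin genes in every library. Points are libraries and horizontal bars group means, with n = 2 a group and 1 for MEFs. *Itga2*, *Itga3*, *Itgb3* and *Itgb8* are higher in primed cells at both passages, *Lamb3* at P5 only, and among the naïve and primed groups *Itgb4* and *Lama3* are lowest at primed P15.

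The laminin chains with the highest levels changed by less than 2-fold in every comparison. Per kilobase, *Lamc1*, the γ chain of most laminins, was first in naïve P5, primed P5 and naïve P15, at 62.5 ± 2.01, 64.6 ± 1.15 and 61.3 ± 0.335 CPM per kb (mean ± SD, n = 2). In primed P15 it stood at 47.5 ± 2.53 beside 50.5 ± 2.48 for *Lamb1*, and the libraries of the 2 genes overlapped. *Lama5*, the α chain of most adult and of early embryonic basement membranes, followed these 2 in all 4 groups, at 32.6 ± 1.02, 46.3 ± 0.770, 24.6 ± 0.332 and 29.1 ± 1.57 CPM per kb, against 6.07 in MEFs. Divided by the longest transcript instead of all exons, *Lamb1* was first in all 4 groups.

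Laminin β1, α5 and β2 were each higher in primed cells at both passages. *Lama5* read 363 and 379 CPM in naïve P5 against 533 and 521 in primed P5, and 277 and 283 against 344 and 319 at P15, log2 fold changes of 0.54 ± 0.035 and 0.23 ± 0.058, the latter lost under 2 of 13 alternatives. *Lamb1* changed by 0.36 ± 0.036 and 0.31 ± 0.059, the latter lost under 1 of 13 alternatives. *Lamb2* changed by 0.55 ± 0.046 and 0.22 ± 0.067, the latter lost under 6 of 13 alternatives, and its P5 value reached 1.46 under an alternative. MEFs held 324 CPM of *Lamb2*. At the median fibroblast marker they would supply 68.0%, 38.1%, 70.6% and 72.1% of its level in naïve P5, primed P5, naïve P15 and primed P15. *Lamc1* did not pass at P5 and fell by 0.38 at P15. *Lama4*, the α chain of vessel and fat basement membranes, passed at P15 only (0.60 ± 0.069) and read 348 CPM in MEFs against 69.2 to 113.5 in the 8 libraries. With MEF counts taken off at the median fibroblast marker, which would supply 67.3% to 89.1% of the *Lama4* level in the 4 groups, the P15 value was 2.14. *Lamc3* had 1 to 13 counts.

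The α1 chain, which joins β1 and γ1 in the first laminin of the embryo, fell in primed cells. *Lama1* (chr17:67697259-67822647) read 79.8 and 77.7 CPM in naïve P5, 26.6 and 24.7 in primed P5, 41.98 and 46.2 in naïve P15, 7.23 and 7.21 in primed P15 and 22.4 in MEFs. The 4 groups did not overlap, and the order ran from naïve P5 through naïve P15 and primed P5 to primed P15. The log2 fold change was −1.58 ± 0.063 at P5 (edgeR adjusted p = 1.9e-19) and −2.62 ± 0.12 at P15 (edgeR adjusted p = 3.97e-21). It fell with passage by 0.83 in naïve and by 1.86 in primed cells, and that difference was called (−1.02 ± 0.13, edgeR adjusted p = 1.75e-07). Primitive endoderm makes this chain in the embryo. The markers of that cell type summed higher in primed than in naïve libraries, and highest in MEFs (424 CPM). Among them *Cubn* (12.7 and 13.4 CPM in naïve P5, 0.944 and 0.444 in primed P5, 1.399 and 0.959 in naïve P15 and 0.803 and 0.738 in primed P15) and *Amn* were lower in primed cells. The part of these markers in the *Lama1* values was not tested.

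*Lama2*, the α chain of muscle laminin, read 8.503 and 10.2 CPM in naïve P5, 4.42 and 3.33 in primed P5, 12.5 and 15.03 in naïve P15 and 4.71 and 4.15 in primed P15. It fell by 1.23 at P5 and by 1.65 at P15 on the log2 scale. MEFs held 33.9 CPM, more than any of these libraries, and both calls held with the MEF share of the lowest fibroblast marker taken off.

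The 2 chains that meet in the laminin of skin and other stratified epithelia, α3 and β3, parted at P5. *Lamb3* (chr1:193207699-193343878) read 2.69 and 1.93 CPM in naïve P5, 20.97 and 17.7 in primed P5, 1.77 and 1.85 in naïve P15, 1.43 and 1.25 in primed P15 and 0.298 in MEFs. Its high values were those of the 2 primed P5 libraries. The log2 fold change was 3.10 ± 0.16 at P5 (edgeR adjusted p = 1.61e-16) and −0.44 ± 0.37 at P15, which did not pass (edgeR adjusted p = 0.297). The change of −3.88 ± 0.18 within primed cells and the difference of the state effects, −3.52 ± 0.37 (edgeR adjusted p = 4.45e-09), were the largest of any member. The gene spans *Hsd11b1* and *G0s2* on the other strand, and the strand setting of the counting is not given in the sources used here. *Hsd11b1* read 0.597 and 0.148 CPM in naïve P5, 5.96 and 7.27 in primed P5, 0.0737 and 0.128 in naïve P15 and 24.1 and 25.1 in primed P15. Among the 4 groups it was highest where *Lamb3* was lowest, while at P5 both genes were higher in primed than in naïve cells. The part of *Hsd11b1* and *G0s2* reads in *Lamb3* was not tested.

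*Lama3* read 10.2 and 9.599 CPM in naïve P5, 9.59 and 7.21 in primed P5, 12.4 and 11.3 in naïve P15, 1.03 and 1.59 in primed P15 and 4.93 in MEFs. Naïve P5, primed P5 and naïve P15 lay between 7.21 and 12.4 CPM and primed P15 at 1.03 and 1.59. The log2 difference of −0.20 ± 0.14 at P5 did not pass (edgeR adjusted p = 0.216), and at P15 it was −3.18 ± 0.23 (edgeR adjusted p = 1.5e-14). In primed cells *Lama3* changed by −2.71 ± 0.24 between passages, and the state effects differed by −2.96 ± 0.28 (edgeR adjusted p = 4.55e-10).

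**Figure D4:**
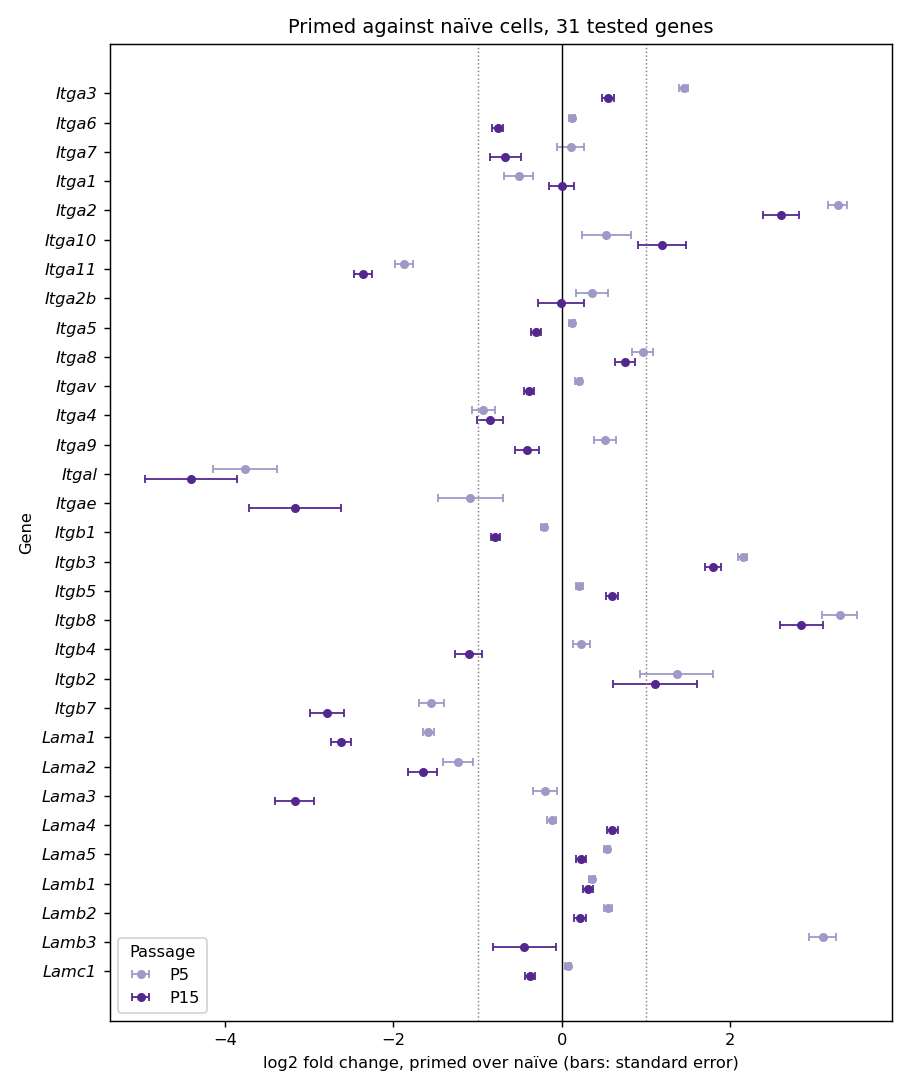
Log2 fold change, primed against naïve, of the 31 tested members at P5 and at P15, with horizontal bars of 1 SE and dotted lines at a 2-fold change in either direction. *Itgb8*, *Itga2* and *Itgb3* lie to the right at both passages, *Itgal*, *Itgb7*, *Lama1* and *Itga11* to the left at both, and the P5 and P15 points of *Lamb3*, *Lama3* and *Itgb4* lie far apart.

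In naïve cells 7 members rose, 3 fell and 21 did not pass between P5 and P15, and in primed cells 5 rose, 15 fell and 10 did not pass. Several naïve rises were lost under alternatives, *Itga3* under 5 of 12, *Itga1* under 6 of 11, *Itga5* under 6 of 12 and *Itga8* under 6 of 11. In primed cells the changes lost most often were those of *Itgae* (5 of 10) and *Itga8* (4 of 12). The 8 members called lower in primed cells were *Itga2*, *Itgae*, *Itgb3*, *Itgb4*, *Itgb7*, *Lama1*, *Lama3* and *Lamb3*, and *Itga1* was called higher, while in naïve cells *Itga11* was called higher. All genes were also called more often between passages in primed cells, 3.18% higher and 8.43% lower against 0.414% and 0.721% in naïve cells. In the test of the difference between the state effects, 14 members had a lower effect at P15 than at P5, 2 a higher one (*Itgb5* and *Lama4*) and 15 did not pass. The 5 with a difference of at least 2-fold were *Lamb3*, *Lama3*, *Itgb4*, *Itgb7* and *Lama1*. These comparisons share libraries with each other, so their counts are not independent.

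A pair of lists put the members beside the other parts of the same contact, the basement membrane with its further integrin ligands (27 genes, 25 tested between states) and the adhesion plaque inside the cell (34 genes, 32 tested). Of the basement membrane genes, 8 were called higher and 0 lower in primed cells at P5, where 13.5% and 8.85% of all genes were, and 6 higher and 4 lower at P15, where 12.2% and 11.0% were (beside the 0, edgeR also had 0 at an unadjusted p below 0.05 and DESeq2 0). At any size 10 rose and 13 fell at P5, and likewise at P15, with a median log2 fold change of −0.16 and −0.42. *Vtn*, the gene of vitronectin and so of a ligand of the αV integrins, was the largest of them and read 0 and 0.0495 CPM in naïve P5, 7.75 and 9.48 in primed P5, 0.221 and 0.0640 in naïve P15, 9.87 and 11.4 in primed P15 and 3.91 in MEFs. *Egflam*, pikachurin, a dystroglycan ligand, rose from 0.448 and 0.346 to 23.3 and 21.1 CPM at P5 and from 0.516 and 0.576 to 12.5 and 14.4 at P15. *Frem1*, a matrix protein of the Fraser complex, rose from 0.646 and 1.04 to 14.4 and 15.4 CPM and from 1.69 and 0.959 to 11.4 and 11.4, and MEFs held 35.9. *Spp1*, osteopontin, another αV ligand, named after its values were seen, read 1009 and 1047 CPM in naïve P5, 3045 and 3087 in primed P5, 912 and 902 in naïve P15 and 4391 and 4549.9 in primed P15 (1.61 ± 0.031 and 2.29 ± 0.053 on the log2 scale). The 4 called lower at P15 were *Col4a5*, *Smoc1*, *Bcam* and *Ntn4*.

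Of the 32 tested genes of the adhesion plaque list, inside the cell, 2 were called higher and 0 lower at P5, and 0 higher and 2 lower at P15, to be read against the same shares of all genes, and both counts of 0 were also 0 at an unadjusted edgeR p below 0.05 and by DESeq2. At any size 11 rose and 10 fell at P5, and 6 rose and 12 fell at P15. *Fermt1*, kindlin-1, an epithelial activator of β integrins, was one of those called at P5 and read 2.39 and 2.42 CPM in naïve P5, 16.7 and 17.1 in primed P5, 1.399 and 1.53 in naïve P15, 2.24 and 1.48 in primed P15 and 0 in MEFs. Its high values were those of the 2 primed P5 libraries, as for *Lamb3*, and its state effects differed by −2.51 ± 0.37 between the passages (edgeR adjusted p = 2.06e-06). The other gene called at P5 was *Kank1*, and those called lower at P15 were *Lims2* and *Tns1*. No gene of this list was called at both passages.

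Feeder RNA touched the members unevenly. Over the 8 libraries the median fibroblast marker stood at 12.6% to 23.3% of its level in MEFs and the lowest marker at 0.671% to 6.61%, while *Dcn* reached 354% in primed P15, so the markers gave no single share. With MEF counts taken off at the median marker, the naïve level of *Itgb8* and the primed level of *Lama2* were at or below zero and no fold is given for them, and both stayed on their side of the threshold. That share also exceeded the level of *Itga1* and *Itga11* in every group and of *Itga8* in both naïve groups. It came to 108% and 128% of *Itga9* in naïve P5 and primed P15. For *Itgal* in primed P5 and primed P15 it was 105% and 348%, and for *Itgb2* in naïve P15 103%. At that share the change of *Lama1* at P15 was −4.11 and that of *Lama3* −5.30. It came to 69.3% of the *Lama1* and 84.2% of the *Lama3* level in primed P15, so these folds rest on the small part left. That of *Itgb3* at P15 was 2.5004.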

How the data were processed

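Per the labels and the study's methods, poly(A) RNA libraries (NEBNext Ultra) were sequenced on Illumina instruments, trimmed with Cutadapt and aligned to mm10 with HISAT2, and the authors counted reads per Ensembl gene with featureCounts. Strand setting, annotation release and the treatment of multi-mapped reads are not given in the sources used here. The deposited values are raw gene counts for 9 libraries, with 54232 genes and 92 spike-in entries that held 0 counts. Symbols and GRCm38 coordinates came from GENCODE (54079 genes matched).

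Computed here were TMM-scaled CPM, CPM per kb of exon, and edgeR 4.0.16 quasi-likelihood tests in R 4.3.3 (2 groups a fit, all 8 libraries for the difference of state effects, MEFs in none) with Benjamini-Hochberg adjustment over all genes tested. DESeq2 1.42.0 served as an alternative. The step was tested on simulated counts. Replicate libraries differed by more than sampling noise (chi-square per gene 2.10 to 3.28). Floors of 3 counts cover counting error only. The members, gene lists and markers were chosen with earlier results of these data known. Members called in any comparison with at least 1 CPM in a group are given in every library, and from each further list the 3 largest changes called at both passages at 10 CPM or more. The feeder alternative subtracts MEF counts times the median or lowest ratio of fibroblast markers.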

Additional observations from a re-analysis of the deposited data

Results flagged for a closer look

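For 5 of the 31 tested members, the difference between primed and naïve cells was not the same at P15 as at P5, by at least 2-fold and by edgeR's test of the difference itself. In each the primed level at P15 was lower, relative to naïve, than at P5. The difference of the log2 fold changes was −3.52 ± 0.37 (SE) for *Lamb3*, a chain of epithelial laminin, and −2.96 ± 0.28 for its partner *Lama3*. It was −1.32 ± 0.18 for *Itgb4*, the β chain of the hemidesmosome, and −1.02 ± 0.13 for *Lama1*. Under the alternatives the *Lama1* difference ran from −2.36 to −0.95, the last of these below 2-fold. For *Itgb7* it was −1.22 ± 0.27, the call that was lost under 3 of 15 alternatives (2 left-out libraries and the larger feeder share). The signs of the state effects differed between passages for *Lamb3* and *Itgb4*, of which the P15 effect of *Lamb3* and the P5 effect of *Itgb4* did not pass, and were the same for *Itgb7*, *Lama1* and *Lama3*. The summed fibroblast markers were 5844 to 5992 CPM in primed P5 and 14213 to 14797 in primed P15. The MEF level was above that of primed P15 for *Lama1* and *Lama3*, and with MEF counts taken off at the median fibroblast marker their differences were −2.36 and −5.05. That share came to 69.3% and 84.2% of their primed P15 levels, so these 2 values rest on the small part left.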

How the results depend on the processing

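Of 38 values of single members called in a comparison, 33 stayed past the adjusted p threshold under every alternative that gave a value. The 2-fold bar was not part of that count. Among the 33, *Itga11* at P5 (−0.75), *Itgb4* at P15 (−0.999) and the difference of state effects of *Lama1* (−0.95) fell below 2-fold under an alternative. The other 5 (*Itgb2* at P5, *Itga10* at P15, *Itgae* and *Itgb7* in primed cells between passages, and the difference of state effects of *Itgb7*) are given with the report's values or rested on the larger feeder share and DESeq2 (*Itgb7* in primed cells, adjusted p = 0.0142 and 0.013). Counts of members called stayed within 1.5 times under DESeq2's size factors or Wald test, library size alone, no filter on low counts and the smaller feeder share. They moved further in 6 cases. Members called lower in naïve cells between passages went from 0 to 1 in a fit of all 8 libraries, with the replicate block and with the feeder share of the median marker. With that feeder share, members called higher in primed cells between passages went from 1 to 0, those with a higher state effect at P15 from 0 to 1 and those with a lower one from 5 to 9. On the 2 further lists that share took genes called lower from 0 to 4 (basement membrane) and from 0 to 3 (plaque) at P5 and from 4 to 11 and from 2 to 7 at P15, plaque genes called higher at P15 went from 0 to 1, and library size alone or leaving out primed P15 replicate 2 took plaque genes called lower at P15 from 2 to 1. Without naïve P5 replicate 1, 1 basement membrane gene was called lower at P5. The cause was not tested. Leaving out 1 library in turn gave 5 to 7 members higher and 4 to 5 lower at P5, 4 higher each time and 6 to 8 lower at P15, always 1 and 0 in naïve cells between passages, always 1 and then 6 to 7 in primed cells, and 0 each time and 4 to 6 for the difference of state effects. Where this left a group with 1 library, that library was taken to vary like the others. The replicate numbers of the labels were also tried as a block. Same-numbered libraries did not deviate together (correlations of −0.076, −0.11, 0.099 and 0.099 in the P5, P15, naïve and primed comparisons), so the numbers were not taken to pair the cultures, and the block called 6 higher and 5 lower at P5 and 4 and 8 at P15, as did a crossed pairing at P15 that was added after the data were seen. Signs turned in 5 cases. *Lama3* at P5 was 0.0021 by library size alone and −0.40 to 0.011 with a library left out (the last without primed P5 replicate 2), and *Itgb7* in naïve cells between passages −0.016 to 0.11 (the first without naïve P15 replicate 2), neither of which passed in the report. In primed cells between passages *Itga11* was −2.00 with the smaller and *Itga8* −1.38 with the larger feeder share (adjusted p = 0.0822), from 0.77 and 0.44. Scaling by library size alone moved the median log2 fold change of all genes to 0.21 at P5, 0.10 at P15, −0.13 in primed cells between passages and −0.11 for the difference of state effects. Depth limits the members under 1 CPM, where 3 counts are 0.148 to 0.221 CPM.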
